A study of Mus musculus with 18 samples.

Results

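Gamma crystallins are the small structural proteins that pack the fibre cells of the lens, and this account follows their transcripts in mouse RPE/choroid, the pigmented cell layer behind the retina with the vascular layer that feeds it. The members were every probe set (a group of short DNA probes read as 1 value) annotated to Cryga, Crygb, Crygc, Crygd, Cryge, Crygf or Crygs and to no other gene. That gave 6 of the 45101 probe sets of the Affymetrix Mouse Genome 430 2.0 array and covered 6 of the 7 genes. Cryga, Crygb, Crygd, Crygf and Crygs had 1 probe set each of their own. A further one, of the type Affymetrix marks as shared between transcripts, was annotated to both Crygb and Crygc and is called Crygb/Crygc here, so Crygc has no value of its own. No probe set was annotated to Cryge alone. The Crygf probe set is of the type whose probes can also match other transcripts, so related gamma crystallins may contribute to it.

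Male C57BL6/J mice, 2 months old in the labels and 6 to 8 weeks old in the methods, were injected into the vitreous once, with 10 μg of dexamethasone (Dex), with 25 μg of triamcinolone acetonide (TAA) or with balanced salt solution (BSS) alone. The volume was 1 μL and both steroids were given in BSS. Tissue was collected at day 7 (1 week) or day 30 (1 month) postinjection. The 18 arrays fall into 6 groups of 3: BSS, Dex and TAA at day 7, and BSS, Dex and TAA at day 30, with the BSS eyes of the same day as the control of each steroid. In the study's methods the front of the eye was cut away, the retina was lifted off, the outside was cleaned of muscle and the best 3 of 4 RNA samples of a group, by integrity, went on to the arrays. The steroids were given at different doses, so their values stand side by side and no test was made between them.

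Crystallins fill the lens fibre cell at very high concentration and give the lens its transparency and refractive power. The gamma crystallins are monomers built of Greek key folds, related to the beta crystallins. Cryga to Crygf are made mainly in the embryonic and early postnatal lens and lie near each other in the genome, while Crygs is a separate gene that goes on being made in the adult lens. Variants in several of them cause cataract. Outside the lens, low levels of crystallin transcripts have been described in the retina and its neighbours.

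In RefSeq's annotation of mouse build GRCm38.p6, 5 of these genes (Cryge, Crygd, Crygc, Crygb and Cryga, in this order) lie within 54.8 kb of chromosome 1. Crygf lies 823 kb further on the same chromosome and on the other strand, and Crygs is on chromosome 16. The 100 bases before each gene's start are printed here to show what the genes of chromosome 1 share and where Crygs differs from them. They are written 5′ to 3′ on the gene's strand, and capitals mark the letters TTTGTG and TATATA, which were the letters searched for on both strands.
Cryga: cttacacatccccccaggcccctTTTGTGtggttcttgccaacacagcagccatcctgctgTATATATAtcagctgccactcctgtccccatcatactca
Crygb: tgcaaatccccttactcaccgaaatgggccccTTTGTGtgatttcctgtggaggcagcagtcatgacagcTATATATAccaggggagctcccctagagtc
Crygc: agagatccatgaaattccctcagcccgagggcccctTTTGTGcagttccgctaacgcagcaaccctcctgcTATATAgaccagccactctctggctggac
Crygd: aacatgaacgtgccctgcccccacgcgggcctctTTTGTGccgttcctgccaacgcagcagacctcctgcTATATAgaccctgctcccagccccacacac
Cryge: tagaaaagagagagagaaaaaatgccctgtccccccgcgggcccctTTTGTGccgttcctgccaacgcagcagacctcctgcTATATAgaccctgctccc
Crygf: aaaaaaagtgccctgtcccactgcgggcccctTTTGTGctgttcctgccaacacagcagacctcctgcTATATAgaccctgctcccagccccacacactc
Crygs: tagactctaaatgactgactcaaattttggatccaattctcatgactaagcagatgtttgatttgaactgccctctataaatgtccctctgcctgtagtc
The windows are those of Cryga at chr1:65103364-65103463 (minus strand), Crygb at chr1:65082291-65082390 (minus strand), Crygc at chr1:65073533-65073632 (minus strand), Crygd at chr1:65063441-65063540 (minus strand), Cryge at chr1:65051164-65051263 (minus strand), Crygf at chr1:65926422-65926521 (plus strand) and Crygs at chr16:22811411-22811510 (minus strand). The Cryge window lies inside the gene's annotated span because a longer transcript starts upstream of it. The windows of the 6 chromosome 1 genes held both TTTGTG and TATATA, in this order and on the strand of the gene. Of 32851 mouse promoter windows of the same length, 6.03% held TTTGTG, 2.19% held TATATA and 0.24% held both. The Crygs window held neither. The longest identical run was 56 bases between Crygd and Cryge, 45 bases between Crygd and Crygf and 33 bases between Cryge and Crygf, against 6 or 7 bases between Crygs and any other member. These matches describe the letters and no binding was measured. In the array values described further on, Crygb, Crygb/Crygc and Crygd had a Pearson's r of 0.97 to 0.99 with each other. Crygs had an r of 0.84 to 0.86 with these 3. Crygf had an r of 0.69 with Crygb, 0.57 with Crygb/Crygc and 0.66 with Crygd, lower than those of Crygs. Cryga, whose values varied little, had an r of 0.35 with Crygb, 0.23 with Crygb/Crygc and 0.34 with Crygd. Whether the letters and the array values are related was not tested.

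The values are log2 values that were centred on the median of the 18 arrays for each probe set. A value of 0 is that median, a difference of 1 is a doubling of signal, and nothing can be read about which gamma crystallin was the most abundant. For the same reason the presence of RPE markers could not be checked as a level. The mean centred value of 13 RPE genes (Rpe65, Rlbp1 and others) stayed between -0.26 and 0.22 on all 18 arrays.

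One control array stood apart and touches every comparison at day 30. On BSS day 30 replicate 3 the mean centred value of 10 lens fibre genes other than crystallins was 1.32, against -0.16 to 0.13 on the other 17 arrays. Mip, the water channel of lens fibre cells, was at 3.64 there and at most 0.35 elsewhere. Grifin, a lens galectin-like protein named here after its values were seen, was at 3.42 there and at most 0.55 elsewhere. Bfsp1, a subunit of the lens beaded filament, was at 1.70 there and at most 0.58 elsewhere. Bfsp2 was at 0.76 and Lim2 at 1.13 there, also their highest values. Not every gene of the list peaked on this array. Birc7 (0.0071), Caprin2 (0.55) and Tdrd7 (0.31), named after their values were seen, were each higher on another array. The same array held the highest value of Crygb, Crygb/Crygc, Crygd and Crygs. The main log2 fold changes or medians of day 30 and of the day contrast are therefore given with and without it. Ranks over all probe sets are given only with it.

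The 6 probe sets differed widely in how much they varied. Crygs ranged over 6.65 log2 units across the 18 arrays, a 101-fold range of signal, and its SD was larger than that of 99.6% of all probe sets. Crygd ranged over 5.13 log2 units (35.0-fold), Crygb/Crygc over 4.14 (17.7-fold) and Crygb over 3.75 (13.5-fold), each with an SD above that of 99% or more of the probe sets. Crygf ranged over only 0.84 log2 units (1.79-fold) and Cryga over 0.55 (1.47-fold), with SDs above those of 62.7% and 41.3% of the probe sets. So 4 of the 6 were among the most variable measurements on the array and the other 2 were not.

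**Figure D1:**
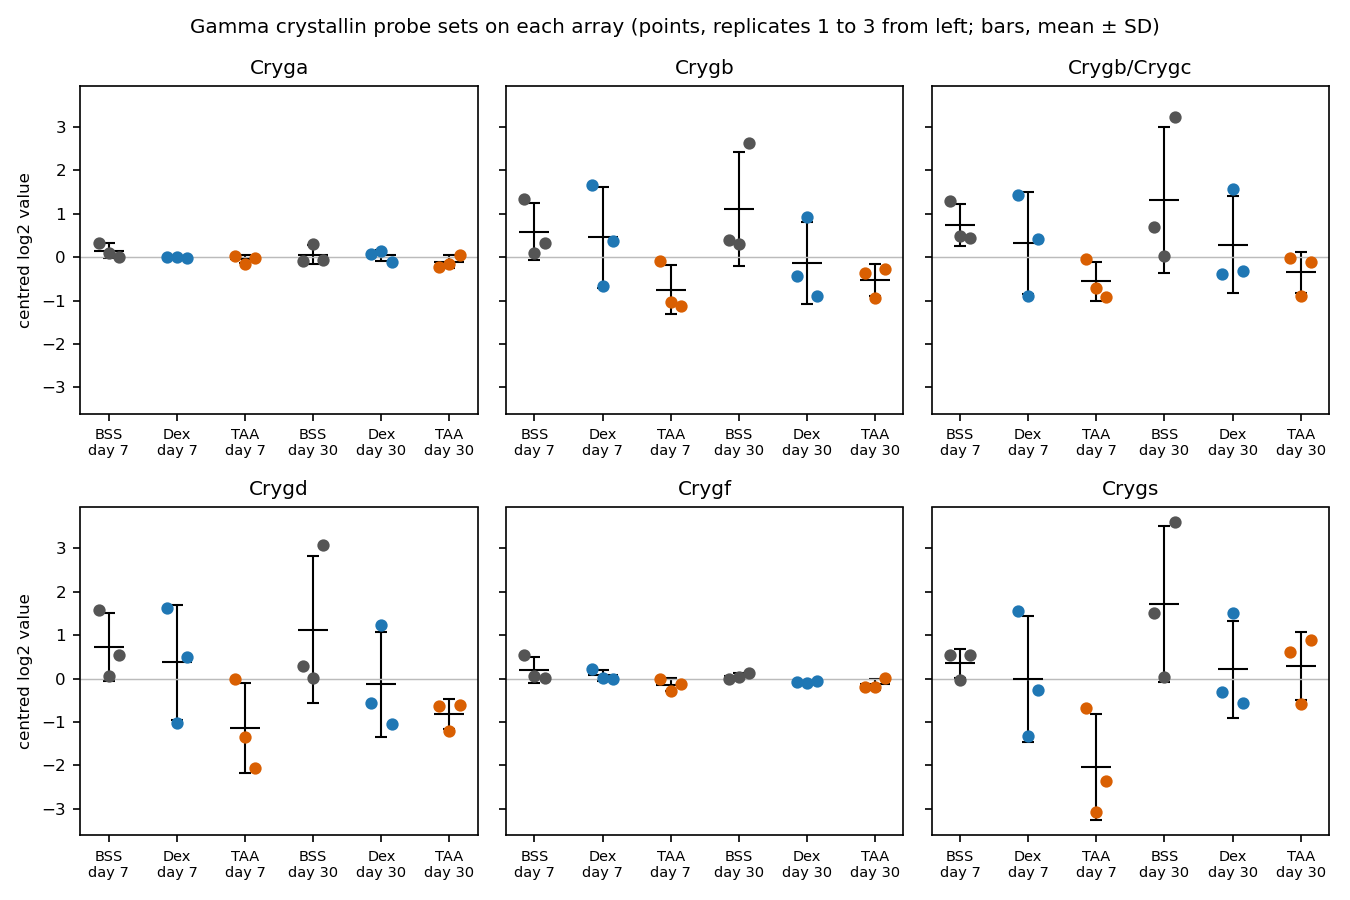
Centred log2 value (vertical axis) of each gamma crystallin probe set on each array, by treatment and day. Points are the 3 replicates of a group in order from the left, and bars are the mean ± SD. BSS day 30 replicate 3 is the highest point of Crygb, Crygb/Crygc, Crygd and Crygs, and the TAA day 7 arrays hold the lowest points of these 4.

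Crygs, the gamma crystallin of the adult lens, was read at 0.54, -0.035 and 0.55 on the BSS day 7 arrays (replicates 1 to 3, here and for each group). It was at 1.56, -1.32 and -0.27 on the Dex day 7 arrays and at -0.68, -3.06 and -2.36 on the TAA day 7 arrays. At day 30 it was at 1.51, 0.035 and 3.59 with BSS, at -0.31, 1.5 and -0.56 with Dex and at 0.61, -0.59 and 0.88 with TAA. The TAA day 7 arrays all lay below the BSS day 7 arrays, and at day 30 the groups overlapped. By group mean the order from the lowest was TAA day 7 at -2.03, Dex day 7 at -0.0078, Dex day 30 at 0.21, TAA day 30 at 0.30, BSS day 7 at 0.35 and BSS day 30 at 1.71. Each group overlapped with its neighbour in this order.

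Crygd, of the chromosome 1 group, was at 1.58, 0.064 and 0.54 on the BSS day 7 arrays, at 1.64, -1.01 and 0.50 on the Dex day 7 arrays and at -0.0083, -1.34 and -2.06 on the TAA day 7 arrays. At day 30 it was at 0.29, 0.0083 and 3.07 with BSS, at -0.56, 1.24 and -1.06 with Dex and at -0.63, -1.21 and -0.60 with TAA. Every TAA array was below every BSS array of its day. At day 7 Dex replicate 1 lay above the BSS arrays, replicate 2 below them and replicate 3 within their range. At day 30 Dex replicate 2 lay within the BSS range and the other Dex arrays lay below it.

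Crygb was at 1.33, 0.093 and 0.33 with BSS, at 1.65, -0.66 and 0.37 with Dex and at -0.093, -1.03 and -1.12 with TAA at day 7. At day 30 it was at 0.39, 0.31 and 2.63 with BSS, at -0.43, 0.91 and -0.89 with Dex and at -0.38, -0.95 and -0.26 with TAA. The shared Crygb/Crygc probe set was at 1.29, 0.47 and 0.43 with BSS, at 1.44, -0.89 and 0.43 with Dex and at -0.050, -0.71 and -0.92 with TAA at day 7. Its day 30 values were 0.69, 0.032 and 3.22 with BSS, -0.38, 1.57 and -0.33 with Dex and -0.032, -0.89 and -0.12 with TAA. Both probe sets followed Crygd array by array, with TAA below BSS at both days without overlap. Crygf lay between -0.30 and 0.54 and Cryga between -0.22 and 0.33 over all 18 arrays.

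The first comparison asked how the tissue stood 1 week after TAA. All 6 gamma crystallin probe sets were lower with TAA than with BSS on average, as were 52.4% of all probe sets, and 5 of the 6, all but Cryga, did not overlap between the 3 TAA and the 3 BSS arrays, against 6.26% of all probe sets that lay lower without overlap. Crygs was 5.21-fold lower (log2 fold change -2.38, SE 0.88), Crygd 3.64-fold lower (-1.87, SE 0.83), Crygb 2.52-fold lower (-1.34, SE 0.65) and Crygb/Crygc 2.45-fold lower (-1.29, SE 0.73). Crygf differed by -0.34 (SE 0.13) and Cryga by -0.19 (SE 0.12). In bulk tissue, fewer cells that hold a transcript and less of it per cell cannot be told apart.

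No gamma crystallin passed limma's test across all 45101 probe sets at day 7 with TAA. The adjusted p was 0.996 for each of the 6, and 1 probe set of the array (0.00222%) passed. At the study's own thresholds (a fold of at least 1.5 and an unadjusted p of at most 0.05), Crygs (unadjusted p = 0.0159) and Crygd (unadjusted p = 0.0400) were counted as lower, against 0.326% of all probe sets. Crygf had an unadjusted p of 0.0169 with a fold of 1.27, and Crygb one of 0.0581. These counts take limma's p in place of the study's own. By the methods' t-test the count was also 2 (0.262% of all probe sets), but it held Crygs and Crygb/Crygc and not Crygd. With limma and without TAA day 7 replicate 2 none of the 6 met the study's thresholds (0.361% of all probe sets did), and Crygs then differed by -1.87. Without TAA day 7 replicate 3, BSS day 7 replicate 1 or BSS day 7 replicate 3 there was 1 (0.357%, 0.264% and 0.406% of all probe sets), and without TAA day 7 replicate 1 there were 3 (0.346%).

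With Dex at day 7 the arrays of the 2 groups overlapped for all 6 (4.77% of all probe sets lay lower without overlap). The log2 fold changes were -0.36 for Crygs (SE 0.88), -0.35 for Crygd (SE 0.83), -0.13 for Crygb, -0.41 for Crygb/Crygc, -0.12 for Crygf and -0.15 for Cryga. All 6 were below 0, as were 50.2% of all probe sets. The 95% interval of Crygs ran from -2.23 to 1.51 and that of Crygd from -2.12 to 1.41, so sizeable differences of either sign remained within them. The Dex arrays were spread out: for Crygd, replicate 1 was just above the highest BSS array and replicate 2 was below the lowest. None met the study's thresholds (0.0754% of all probe sets did so as lower), and the adjusted p was 0.99997 for each. Without Dex day 7 replicate 2 the log2 fold changes of Crygb, Crygb/Crygc, Crygd and Crygs turned positive (0.42, 0.20, 0.34 and 0.30), and without BSS day 7 replicate 1 that of Crygf did (0.047).

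TAA at day 30 was again lower than BSS in all 6 probe sets, with 49.1% of all probe sets below 0. Crygd was 3.82-fold lower (log2 fold change -1.93, SE 0.83), Crygb/Crygc 3.17-fold lower (-1.67, SE 0.73), Crygb 3.11-fold lower (-1.64, SE 0.65) and Crygs 2.67-fold lower (-1.41, SE 0.88). Crygf differed by -0.19 and Cryga by -0.16. By log2 fold change Crygd was the most negative of the 45101 probe sets in this comparison, Crygb/Crygc the 3rd, Crygb the 4th and Crygs the 8th. Crygb, Crygb/Crygc and Crygd did not overlap between TAA and BSS (3.11% of all probe sets were lower without overlap), and the same 3 met the study's thresholds, with unadjusted p of 0.0236, 0.0377 and 0.0341, against 0.109% of all probe sets. By the methods' t-test none of them did, and 0.0133% of all probe sets met the thresholds as lower. The adjusted p from limma was 0.9999 for each of the 6 and no probe set of the array passed (0%).

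The size of the day 30 difference depended on the control array with the highest lens fibre values. Without BSS day 30 replicate 3 the log2 fold change of Crygd with TAA was -0.96, that of Crygb -0.88, that of Crygb/Crygc -0.71 and that of Crygs -0.47. None then met the study's thresholds (0.082% of all probe sets did so as lower), and the median over the 6 went from -1.53 to -0.59. Without TAA day 30 replicate 2 none met them either (0.337% of all probe sets), with a median of -1.18, and without TAA day 30 replicate 1 or 3 there were 2 and 1 (0.173% and 0.157%). On the 2 remaining BSS arrays Crygb, Crygb/Crygc and Crygd were above their values on the 3 TAA arrays. For Crygb/Crygc the nearest values were 0.032 with BSS and -0.032 with TAA. How many of all probe sets had this order was not counted, so nothing is drawn from it.

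With Dex at day 30 all 6 were again below 0, as were 48.5% of all probe sets. The log2 fold change was -1.5 for Crygs (SE 0.88), -1.25 for Crygd (SE 0.83), -1.24 for Crygb (SE 0.65) and -1.03 for Crygb/Crygc (SE 0.73), while Crygf (-0.13) and Cryga (-0.012) were close to 0. All but Crygf overlapped with BSS, and 2.25% of all probe sets were lower without overlap. None of the 6 met the study's thresholds (0.288% of all probe sets did so as lower), and the adjusted p was 0.999 for each. Dex day 30 replicate 2, with Crygs at 1.5 and Crygd at 1.24, stood well above the other 2 Dex arrays. Without it 4 of the 6 met the study's thresholds (0.124% of all probe sets). Without BSS day 30 replicate 2 there were 3, while the share of all probe sets went up to 2.65%, and without BSS day 30 replicate 1 there was 1 (0.122%). Without BSS day 30 replicate 3 none did (0.129%) and the median went from -1.14 to -0.18. So the Dex difference at day 30 hung on single arrays of either group.

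**Figure D2:**
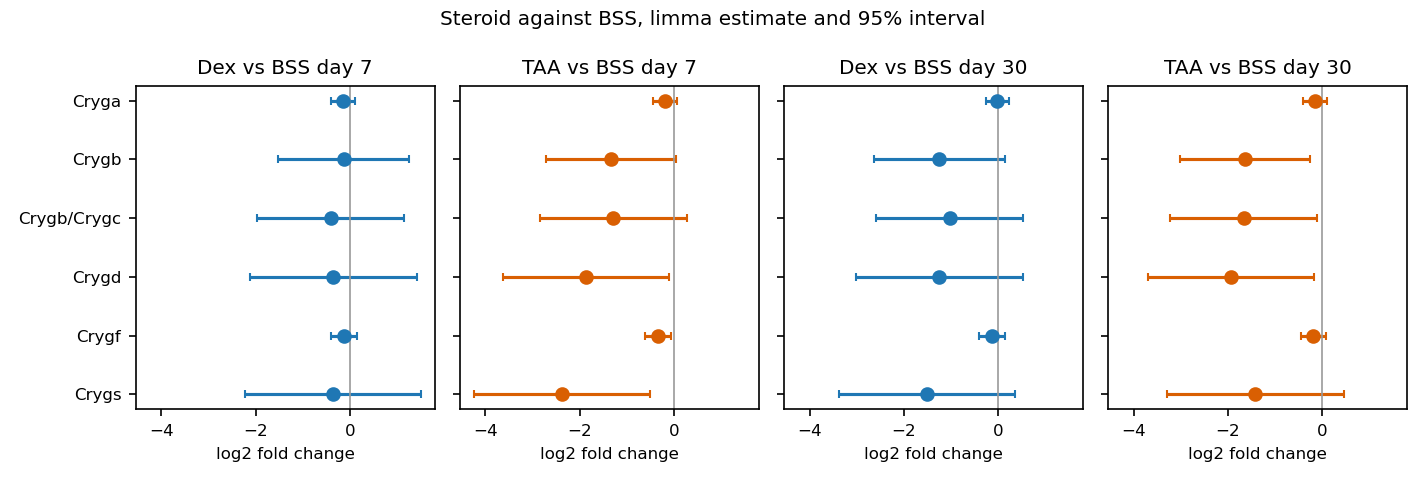
Log2 fold change of each gamma crystallin probe set against BSS of the same day (horizontal axis), with the 95% interval of the limma fit, for Dex and TAA at day 7 and day 30. All points are below 0. The interval excludes 0 for Crygd, Crygf and Crygs with TAA at day 7 and for Crygb, Crygb/Crygc and Crygd with TAA at day 30, before any adjustment for the number of probe sets tested.

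The 2 steroids of a day were set against the same 3 BSS arrays, so their values are not independent of each other. At day 7 the median over the 6 members was -0.25 with Dex and -1.31 with TAA. At day 30 it was -1.14 with Dex and -1.53 with TAA. The median over all probe sets was within 0.01 of 0 in each of these 4 comparisons.

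The day itself was a further contrast, over 9 arrays a day, with the 3 treatments averaged. From day 7 to day 30 the Crygs group mean went from 0.35 to 1.71 with BSS and from -0.0078 to 0.21 with Dex. With TAA it went from -2.03 to 0.30. Crygs was 2.47-fold higher at day 30 than at day 7 (log2 fold change 1.30, SE 0.51, unadjusted p = 0.0211, adjusted p = 0.281 with limma), and it alone of the 6 met the study's thresholds as higher (0.661% of all probe sets did). Without BSS day 30 replicate 3 its log2 fold change was 0.99 (SE 0.46, unadjusted p = 0.0475), still within the thresholds, where 0.244% of all probe sets were. No member passed the adjusted test, which 0.399% of all probe sets did. The log2 fold changes of the chromosome 1 genes were closer to 0. They were 0.051 for Crygb (SE 0.38), 0.072 for Crygd (SE 0.48) and 0.25 for Crygb/Crygc (SE 0.42). Crygf was at -0.095 and Cryga at -0.037. Without BSS day 30 replicate 3 Crygb was at -0.20, Crygd at -0.25 and Crygb/Crygc at -0.065, so their sign changed. Crygf was then at -0.11 and Cryga at -0.016. Whether the effect of a steroid differed between the days was tested as an interaction. The log2 difference between the Dex effects was -1.11 for Crygb (SE 0.92) and -1.14 for Crygs (SE 1.24), and that between the TAA effects was 0.97 for Crygs (SE 1.24). No member had an interaction with an unadjusted p of 0.05 or less, against 2.97% of all probe sets for Dex and 3.03% for TAA, and the intervals were wide (-1.68 to 3.61 for Crygs with TAA). Without BSS day 30 replicate 3 these differences were -0.35 for Crygb and -0.20 for Crygs with Dex and 1.91 for Crygs with TAA (SE 1.14).

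Within an array, Crygs was compared with each chromosome 1 probe set at the 2 days. This comparison was chosen after its values were seen and carries no test. Crygs minus Crygd was between -1.72 and 0.0059 on the 9 day 7 arrays (median -0.31) and between 0.027 and 1.48 on the 9 day 30 arrays (median 0.53), so the days did not overlap. Crygs minus Crygb was above 0 on 1 of 9 arrays at day 7 (median -0.64) and on 8 of 9 at day 30 (median 0.59), with the days overlapping. Crygs minus Crygb/Crygc was above 0 on 2 of 9 arrays at day 7 (median -0.63) and on 7 of 9 at day 30 (median 0.31), also overlapping. Against Cryga and Crygf it was above 0 on 3 and 2 of 9 arrays at day 7 and on 5 of 9 for each at day 30, with day 30 values from -0.46 to 3.67 and from -0.51 to 3.46. A difference of centred values compares changes and not amounts of the genes.

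**Figure D3:**
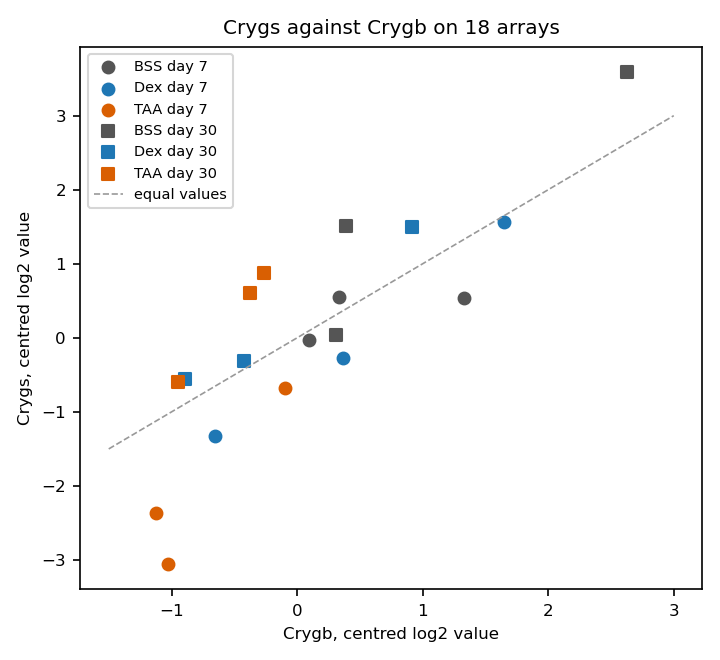
Crygs against Crygb, both as centred log2 values, on the 18 arrays, with treatment by colour and day by marker shape. The dashed line marks equal values. Of the day 30 arrays 8 of 9 lie above the line, of the day 7 arrays 1 of 9, and BSS day 30 replicate 3 is the point at the top right.

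The members varied together from array to array. Over the 18 arrays Pearson's r was 0.99 between Crygb and Crygd (Spearman's rho 0.98) and 0.97 between Crygb and Crygb/Crygc (rho 0.96), which in part share a target. Crygs followed them with r of 0.84 for Crygb (rho 0.83) and 0.84 for Crygd (rho 0.78). Within a day the r of Crygs with Crygb was higher, at 0.93 at day 7 and 0.94 at day 30. Crygf had r of 0.69 with Crygb, 0.66 with Crygd and 0.47 with Crygs. Cryga, with its narrow range, had r of 0.35 with Crygb and 0.14 with Crygs, and 0.67 with Crygf. These are descriptions: values on 1 array share their RNA, labelling and normalization. Leaving out the 2 arrays farthest from the median left r at 0.98 for Crygb with Crygd and at 0.73 for Crygb with Crygs.

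The genes outside the family with the closest pattern were other crystallins. Among all probe sets annotated to a single gene, the 5 with the highest r with the mean of the 6 members were Crybb3 (0.95), Crybb2 (0.94), Cryba4 (0.93), Crybb1 (0.93) and Cryba1 (0.91), all of them beta crystallins. For Crygs alone they were Cryba1 (0.99), Crybb2 (0.99), Cryba4 (0.97), Crybb3 (0.95) and Cryaa (0.95), the last being the alpha crystallin that acts as a chaperone in the lens.

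The other crystallins were a list of 9 genes, all measured, and no gene of it passed limma's adjusted test in any steroid comparison. With TAA at day 7 all 9 were below 0 with a median log2 fold change of -1.05, against -0.00037 for all 18194 genes. Of them Cryba1 (-2.61, SE 0.96), Crybb2 (-1.88, SE 0.80) and Cryba4 (-1.36, SE 0.62) met the study's thresholds as lower, against 0.456% of genes. Cryab, the small heat shock protein that many tissues make outside the lens, differed by -0.047 (SE 0.11), and Crygn, a relative with both beta and gamma features, by -0.14 (SE 0.32). With Dex at day 7 the median was -0.072, with Dex at day 30 -0.92 and with TAA at day 30 -1.15. None met the study's thresholds there, where 0.0769%, 0.225% and 0.0989% of genes did so as lower. Without BSS day 30 replicate 3, a setting added for the lists after seeing the data, the day 30 medians were -0.20 with Dex and -0.35 with TAA. At day 30 against day 7, 4 of the 9 met the thresholds as higher (0.698% of genes), among them Cryba1 (1.48, SE 0.55) and Crybb2 (1.09, SE 0.46). Without that array Cryba1 alone did (1.09, SE 0.46, with 0.269% of genes), and Crybb2 was at 0.76 (SE 0.38). The mean of the 9 had an r of 0.93 with the mean of the gamma crystallins (rho 0.86) and of 0.98 with Crygs (rho 0.98).

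The other genes of the lens fibre cell gave values on a smaller scale. Of the 12 on the list 10 were measured. Their median log2 fold change was -0.052 with TAA at day 7, -0.031 with Dex at day 7, -0.37 with Dex at day 30 and -0.36 with TAA at day 30. At day 30 with TAA, Bfsp1 (-0.79, SE 0.32) and Grifin (-1.30, SE 0.61) met the study's thresholds as lower (0.0989% of genes), and with Dex Bfsp1 did (-0.72, SE 0.32; 0.225% of genes). All of these calls were lost without BSS day 30 replicate 3, where Bfsp1 was at -0.31 (SE 0.24) and Grifin at -0.23 (SE 0.26) with TAA and Bfsp1 at -0.24 (SE 0.24) with Dex, and the list medians were -0.083 with TAA and -0.074 with Dex. Dex day 7 replicate 1 and Dex day 30 replicate 2, which were high in the gamma crystallins (means of 1.08 and 0.88), were also high in the other crystallins (0.88 and 1.21). On these arrays Mip was at 0.0073 and 0.059, Bfsp1 at 0.58 and 0.41 and Grifin at 0.42 and 0.50. The mean of the 10 lens fibre genes was 0.11 and 0.12 there. The r between the gamma crystallins and the lens fibre list was 0.77 (rho 0.82). What part lens material had in the differences between groups was not tested beyond the values without BSS day 30 replicate 3.

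**Figure D4:**
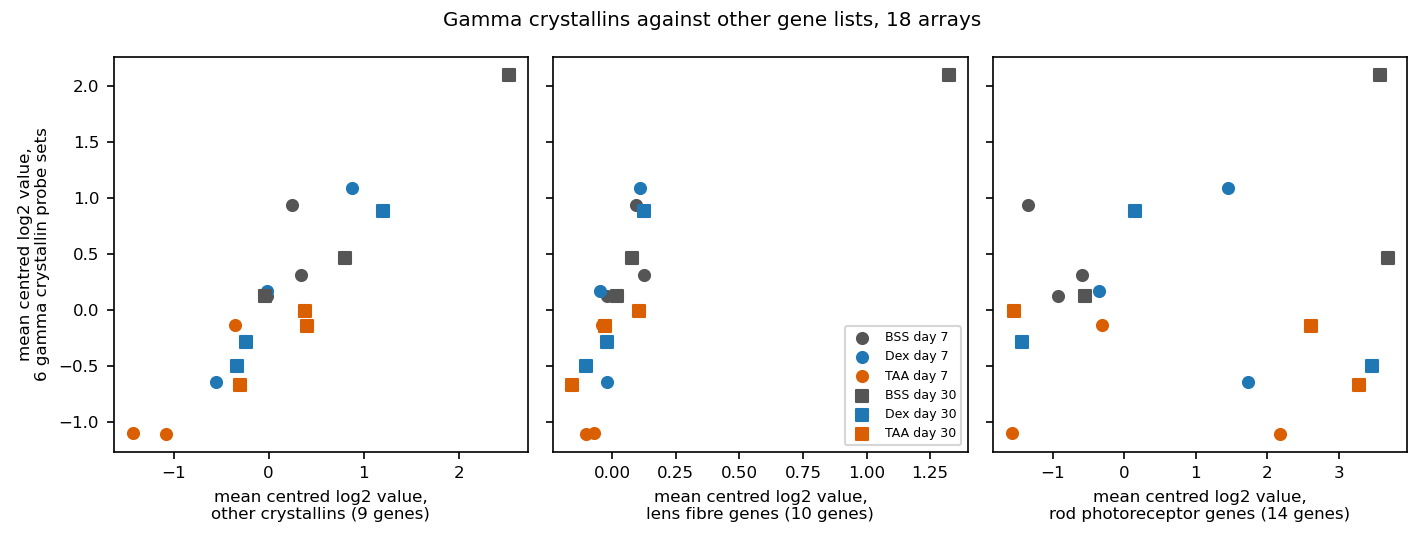
Mean centred log2 value of the 6 gamma crystallin probe sets (vertical axis) against that of 9 other crystallins, 10 lens fibre genes and 14 rod photoreceptor genes (horizontal axes) on each of the 18 arrays. The points line up along the other crystallins, 1 array (BSS day 30 replicate 3) lies far to the right for the lens fibre genes at 1.32, and the rod genes show no common order with the gamma crystallins (r = 0.089, rho = 0.057).

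The regulators of gamma crystallin genes were 9 transcription factors, among them Maf, Sox1, Sox2 and Prox1, which switch on crystallin genes as fibre cells form. None met the study's thresholds in any comparison, where at most 0.456% of genes did so as lower and 0.698% as higher. Their median log2 fold change was between -0.062 and 0.054 in the 4 steroid comparisons. Without BSS day 30 replicate 3 it was 0.013 with Dex and -0.0013 with TAA at day 30. Of the genes that glucocorticoids are known to raise, all 12 on the list were above 0 with TAA at day 7. Their median was 0.20, against -0.00037 for all genes. Per1, the clock gene with a glucocorticoid response element, met the study's thresholds as higher (0.69, SE 0.18, with 0.126% of genes). Fkbp5 (0.38, SE 0.17) and Tsc22d3 (0.28, SE 0.13) stayed under a fold of 1.5. With Dex at day 7, 8 of the 12 were above 0 (median 0.050, against 0.0022 for all genes). At day 30, 3 were below 0 with Dex (median 0.15) and 4 with TAA (median 0.14), against medians of 0.011 and 0.012 for all genes. Without BSS day 30 replicate 3 these day 30 list medians were 0.12 and 0.14. No gene of the list passed the adjusted test in a steroid comparison.

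Markers of neighbouring tissues were also uneven between groups. With TAA at day 7 all 10 skeletal muscle genes were below 0 (median -0.62, against -0.00037 for all 18194 genes). Of them 5 met the study's thresholds as lower (0.456% of genes), namely Tnnt3, Tnni2, Mylpf, Pvalb and Myl1 (-0.65 to -0.98, named after their values were seen). The mean of the muscle list was -0.71 to -0.20 on the TAA day 7 arrays and -0.16 to 0.28 on the BSS day 7 arrays, and its r with the gamma crystallins was 0.86 over the 9 arrays of day 7, 0.35 over the 9 of day 30 and 0.61 over all 18 (rho 0.58). The 9 measured genes of the surface epithelium of cornea and conjunctiva were all below 0 with TAA at day 7 (median -0.57), with a list mean of -1.30 to -0.23 against -0.85 to 1.22 with BSS. With TAA at day 30 all 9 were above 0 (median 0.23). With Dex their median was -0.13 at day 7 and -0.21 at day 30. Without BSS day 30 replicate 3 the day 30 medians were 0.95 with TAA and 0.22 with Dex. This list's r with the gamma crystallins was 0.26 over the 18 arrays (rho 0.13). The rod photoreceptor genes, 14 of 16 measured, had medians of 2.06 with Dex and 1.12 with TAA at day 7. At day 30 their medians were -1.62 and -0.81 (-0.86 and -0.13 without BSS day 30 replicate 3). None met the study's thresholds in the 4 steroid comparisons, where at most 0.456% of genes did so as lower and 0.214% as higher. The rod list means ran from -1.58 to 3.69 over the arrays. The 7 endothelial genes of the choroid had medians of 0.36 with Dex and 0.065 with TAA at day 7. At day 30 theirs were 0.33 and 0.24. The 13 RPE genes had medians between -0.023 and 0.092 in the 4 steroid comparisons. Without BSS day 30 replicate 3 the endothelial day 30 medians were 0.37 with Dex and 0.15 with TAA. Those of the RPE genes at day 30 were then -0.052 and -0.085. As the values are centred, none of these lists can be read as present or absent, and their part in the gamma crystallin differences was not tested.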

How the data were processed

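Log2 values of 18 arrays in 1 table were deposited by the authors, who normalized the scanned arrays with RMA (version not given in the sources used here) in GeneSpring and set each probe set's baseline to its median over all samples. The centred log2 values hold no level, so the study's filter on weak signal could not be repeated. Array medians lay between -0.044 and 0.020 (SD 0.19 to 0.42). Background, scan order and any batch were not given in the sources used here. Array number limits the precision. Of the probe sets, 34958 had 1 gene symbol, 932 several and 9211 none in the platform annotation. The labels name a two-cycle labelling protocol from 0.1 μg of total RNA, and the paper's methods another kit.

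All 45101 probe sets were fitted with limma 3.58.1 in R 4.3.3 on all 18 arrays (1 mean per group, 12 residual degrees of freedom), with two-sided tests and Benjamini-Hochberg adjustment over all probe sets, called at 0.05. Counts at the study's thresholds used limma's unadjusted p. The labels call the replicates biological, and nothing more is said of their origin. With 3 arrays a group, an exact permutation test of 1 value could not go below 0.1 and was not used. A listed gene with several probe sets of its own was averaged over them. The fit was tested on simulated data with 200 changed probe sets. All members were named, together with the first measured members of each list, all other crystallins and the 5 genes most alike in pattern; exceptions are marked. The members and the lists were chosen with earlier results of these data known. Alternatives were the methods' t-test, a fit to the compared groups alone, array weights, a robust prior, median scaling, leaving out probe sets with an SD below the median, a replicate block and leaving out each array in turn. Promoter windows came from RefSeq (GRCm38.p6), with all 7 genes matched by symbol.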

Additional observations from a re-analysis of the deposited data

How the results depend on the processing

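No gamma crystallin passed an adjusted p of 0.05 against BSS under any setting (smallest 0.285), and none in the other contrasts. TAA values were below 0 in 82 of 82 fits under the other settings and in 72 of 72 with an array left out, and Dex values in 81 of 82 and in 63 of 72. The exception under the other settings was Cryga with Dex at day 30, at 0.036 with array weights. Most of these settings keep the difference of group means, so only array weights and median scaling could change a sign. All 6 members come from the same arrays, where Crygb, Crygb/Crygc, Crygd and Crygs varied together, so these are not counts of independent results. No share over all probe sets was counted for them. The number of the 6 lower at the study's thresholds with TAA at day 7 (2) was 4 with limma on the compared groups alone, where 0.521% of all probe sets were lower, 1 with a robust prior (0.302%) and 0 to 3 with an array left out. With TAA at day 30 (3) it was 0 by the methods' t-test (0.0133%), 1 with a robust prior (0.0931%) and 0 to 4 with an array left out, the 4 without BSS day 30 replicate 2, where 1.86% of all probe sets were lower. With Dex at day 30 (0) it was 0 to 4, the 4 without Dex day 30 replicate 2 (0.124%). By the methods' t-test, Crygs at day 30 against day 7 no longer met the thresholds (count 0; 0.506% of all probe sets did). With an array left out the median went from -1.72 to -0.18 with Dex at day 30 and from -2.15 to -0.59 with TAA at day 30. Single values with Dex at day 7 went from -0.73 to 0.42 (Crygb), -0.96 to 0.20 (Crygb/Crygc), -0.98 to 0.34 (Crygd), -0.22 to 0.047 (Crygf) and -1.14 to 0.30 (Crygs), and Cryga with Dex at day 30 from -0.076 to 0.11. Leaving out probe sets with an SD below the median removed Cryga and kept the other 5. Median scaling moved contrasts by at most 0.013. Array number limits what can be shown: Crygs differences carried an SE of 0.88. The cause of these shifts was not tested.

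The arrays share replicate numbers only: deviations of same-numbered arrays of a day had r of -0.69 to 0.25 (18 pairs, 6 over 0.1). Differently numbered arrays of different groups of a day had r of -0.53 to 0.76 (36 pairs, 16 over 0.1). With the replicate number as a block, 3 members were lower at the study's thresholds with TAA at day 7 (0.315% of all probe sets) and 3 with TAA at day 30 (0.0887%), and no adjusted call was gained.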
